A study of Mus musculus with 9 samples.

Results

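The genes of cholesterol and fatty acid synthesis were examined in bulk RNA sequencing counts from punches of the paraventricular nucleus (PVN), a hypothalamic nucleus that controls feeding, autonomic output and hormone release. The 33 genes, of 27179 in the count table, were chosen for their known roles and not by a threshold on their values: 18 enzymes of sterol synthesis, 5 regulators of the SREBP transcription factors and 10 enzymes of fatty acid synthesis. All 33 had enough counts to be tested, as had 17344 genes in all. Samples came from 9 wild type male mice, C57BL/6 in the labels and C57BL/6J in the study's methods, which started their diets at 5 weeks of age (35 days) and stayed on them for 12 weeks. Control (3 mice) received standard chow, 16% of whose calories were fat, and no drug. HFD (3 mice) received a high fat diet, 60% of whose calories were fat, and no drug. The 3 HFD+Mino mice ate the same high fat diet and received minocycline, a tetracycline antibiotic with anti-inflammatory action, at 40 mg/kg/day over the final 6 weeks. No group received minocycline on chow, so an effect of the drug that needs the diet and one that does not cannot be told apart. Each sample was 1 mouse.

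Cells build cholesterol from acetyl-CoA through mevalonate, farnesyl diphosphate, squalene and lanosterol, and build fatty acids from the same acetyl-CoA through malonyl-CoA. Both routes are controlled by SREBP proteins, which are held in the endoplasmic reticulum by Insig and Scap when sterols are plentiful and are cut loose to switch on their target genes when sterols are scarce. In the textbook account SREBP-2 (Srebf2) acts mainly on the sterol enzymes and SREBP-1c (Srebf1) on the fatty acid enzymes. The brain makes nearly all of its own cholesterol, since lipoproteins of the blood do not cross into it, and glia are a main site of that synthesis.

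The window of 250 bases before the transcription start is shown for 4 of the genes, because SREBP proteins act at short elements close to the starts of their targets, usually beside a binding site for NF-Y. Hmgcs1 and Nsdhl make sterols, Srebf2 encodes SREBP-2 and Fasn makes fatty acids, and the results below place these genes on both sides of the change between HFD+Mino and HFD. The sequences were taken from RefSeq on the GRCm38.p6 build and run 5′ to 3′ in the direction of the gene. Capitals mark the NF-Y box CCAAT, which reads ATTGG on the other strand, and in Hmgcs1 also the SREBP element TCACNCCAC. The windows are chr13:119690101-119690350, plus strand for Hmgcs1, chrX:72918271-72918520, plus strand for Nsdhl, chr15:82147019-82147268, plus strand for Srebf2 and chr11:120824548-120824797, minus strand for Fasn. In Fasn the pair of boxes nearest the start overlaps.
Hmgcs1: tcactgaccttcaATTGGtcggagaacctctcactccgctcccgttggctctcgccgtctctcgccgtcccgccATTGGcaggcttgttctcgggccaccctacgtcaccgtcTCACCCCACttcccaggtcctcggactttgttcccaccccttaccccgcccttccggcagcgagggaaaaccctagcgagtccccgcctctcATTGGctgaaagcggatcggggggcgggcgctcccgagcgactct
Nsdhl: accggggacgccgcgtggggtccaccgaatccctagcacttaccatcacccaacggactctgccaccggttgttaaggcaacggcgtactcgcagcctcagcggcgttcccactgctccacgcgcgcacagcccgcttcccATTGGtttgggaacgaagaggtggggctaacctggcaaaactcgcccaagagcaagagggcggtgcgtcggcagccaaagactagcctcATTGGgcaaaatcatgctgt
Srebf2: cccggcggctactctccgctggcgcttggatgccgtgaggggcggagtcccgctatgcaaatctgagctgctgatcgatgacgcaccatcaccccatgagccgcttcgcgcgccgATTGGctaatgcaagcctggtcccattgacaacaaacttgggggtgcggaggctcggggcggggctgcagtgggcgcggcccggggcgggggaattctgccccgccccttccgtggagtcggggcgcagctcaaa
Fasn: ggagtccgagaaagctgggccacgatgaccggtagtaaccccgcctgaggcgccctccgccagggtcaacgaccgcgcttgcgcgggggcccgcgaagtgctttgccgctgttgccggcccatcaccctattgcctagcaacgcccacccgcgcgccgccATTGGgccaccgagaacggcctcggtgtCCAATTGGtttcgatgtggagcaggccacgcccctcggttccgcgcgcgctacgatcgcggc

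Promoters of 27 of the 33 genes were in the RefSeq table, each searched on both strands from 250 bases before to 50 bases after the start. Fdps, Fdft1, Sqle, Scd1, Scd2 and Fads1 had no entry. The NF-Y box was found in 21 of the 27 promoters (77.8%) and in 37.9% of all 27025 promoters. Mvk held 5 boxes, and Hmgcs1 and Nsdhl 4 each. The SREBP element in the form searched was found in 1 of the 27, Hmgcs1, where it began 137 bases before the start, and in 1.22% of all promoters. The E-box CACGTG, a site that SREBP-1 can also bind, was in 5 of the 27 (18.5%), namely Hsd17b7, Sc5d, Insig1, Scap and Elovl5, against 7.24% of all promoters. Sterol elements vary in sequence, and a match or its absence in this window is a description of letters only.

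The libraries differed in ways that touch the comparisons. The smallest total was 17728590 counts (HFD replicate 1) and the largest 42326213 (Control replicate 1). The defining PVN hormones were nearly absent from Control replicate 1, with Avp at 0.149 and Oxt at 0.770 CPM (counts divided by TMM-scaled library size from edgeR), while Avp reached 28049 CPM in HFD+Mino replicate 1 and 1218 CPM in HFD+Mino replicate 3. Control replicate 1 also had the highest sum of 10 mature oligodendrocyte markers, 30491 CPM against 2409 to 7116 CPM in the other 8 samples, and Control replicate 2 held Pmch of the neighbouring lateral hypothalamus at 2560 CPM. Rn45s, the ribosomal RNA precursor, lay at 239 to 461 CPM in Control, 3477 to 3829 CPM in HFD and 426 to 1346 CPM in HFD+Mino. The punches thus differed in their markers of tissue and cell type, and the libraries on which calls depended are named with the results. In bulk tissue, fewer cells of a type and less RNA per cell cannot be told apart.

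Most fatty acid enzymes and SREBP regulators were highest in HFD, and most sterol enzymes were lowest there. Fitted values placed HFD above both other groups for 8 of 10 fatty acid enzymes and 4 of 5 SREBP regulators, and below both for 11 of 18 sterol enzymes. The share of all tested genes with HFD highest or lowest was not counted. Medians of all tested genes also turned at HFD. In the tenth with the longest exons, the median log2 change was 0.48 from Control to HFD and -0.60 from HFD to HFD+Mino. In the tenth with the shortest exons these medians were -0.23 and 1.12. In the CPM of each sample, the 10 fatty acid enzymes summed to between 1690 and 2082 in Control, 2837 and 3136 in HFD, and 883 and 1417 in HFD+Mino, with no overlap between any 2 groups. The 18 sterol enzymes summed to between 1684 and 2033 in Control, 1371 and 1753 in HFD, and 1830 and 2217 in HFD+Mino. These sums lean on abundant genes. The median over genes in the plot of group medians by mouse weights the genes equally.

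**Figure D1:**
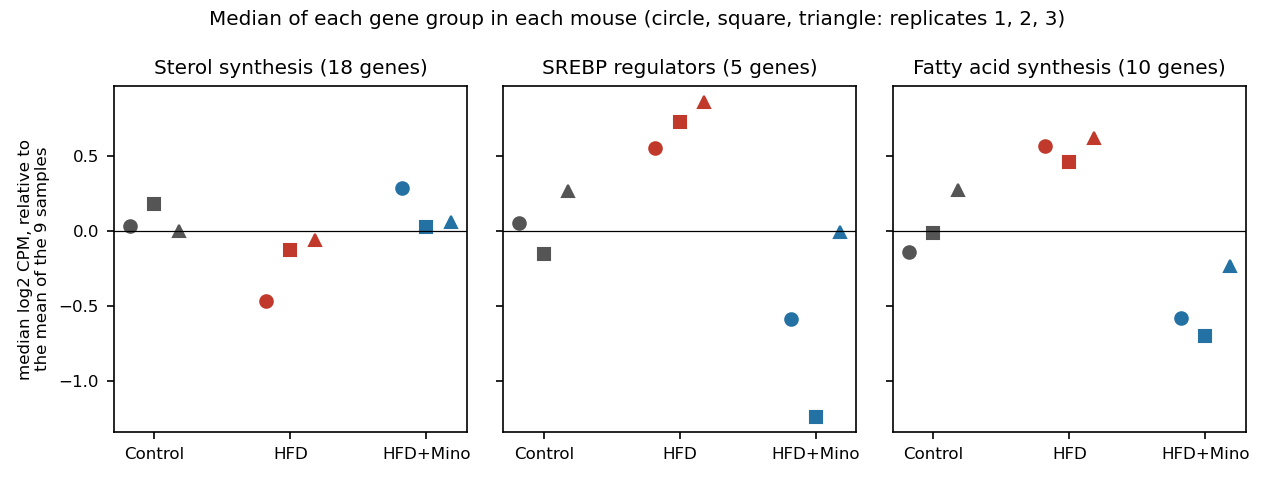
For each gene group, each point is 1 mouse and gives the median over the genes of log2 CPM relative to the mean of the 9 samples. The HFD mice lie above all other mice for fatty acid synthesis and for the SREBP regulators, and below all other mice for sterol synthesis; HFD+Mino replicate 3 is the treated mouse nearest to HFD in the SREBP and fatty acid panels.

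Levels per length ranked Scd2, the main stearoyl-CoA desaturase of brain, first among the 33 genes at 158 CPM per kb of exon (mean of the 3 groups). Hmgcs1 followed at 61.1, Fdft1 at 58.8, Pmvk at 57.1 and Fads1 at 53.6 CPM per kb, which lay close together. At the low end were Acacb at 0.794, Acaca at 1.27 and Lss at 1.81 CPM per kb. Acaca and Acacb, the acetyl-CoA carboxylases, were lowest by this measure and Scd2 highest. Lengths are those of all exons of a gene merged, 17074 nt for Acaca, whose longest transcript has 9513 nt. Other genes share 52.6% of the 50-base runs of Acaca, so its count and rank are uncertain.

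For HFD against Control, the question was which genes the diet moved, and 0 of the 33 genes passed an FDR under 0.01 with at least a 1.5-fold change in edgeR's quasi-likelihood test, where 1.74% of all tested genes did. An unadjusted p under 0.05 was found for 7 of the 33 and for 20.5% of all tested genes, and DESeq2 called 2 of the 33 and 6.91% of all tested genes by the same thresholds, so these shares were near the background. At an FDR under 0.05 with no fold threshold, 2 of the 33 genes rose, Fasn and Acaca, against 5.77% of all tested genes called. The samples of HFD and Control did not overlap for 18 of the 33 genes (54.5%), 8 higher and 10 lower in HFD, while 35.7% of all tested genes did not overlap. In simulated counts for this comparison, 30% of genes changed 4-fold and 0% of genes changed 2-fold were called by the stricter rule. Only 200 of 17344 genes were changed there, and 67 passed an FDR under 0.05, against 1001 in the data. With fewer changed genes the FDR adjustment is stricter, so these shares do not give the sensitivity in the data.

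Fasn (chromosome 11, 120805958 to 120825166, minus strand), the fatty acid synthase, stood at 39.2, 43.7 and 93.2 CPM in Control and at 203, 186 and 228 CPM in HFD. All HFD mice lay above all Control mice, and Control replicate 3 was more than 2 times as high as the other Control mice. The rise was 3.51-fold (log2 1.81, SE 0.42, edgeR FDR = 0.0297). Acaca, acetyl-CoA carboxylase of the cytosol, stood at 12.9, 11.3 and 15.5 CPM in Control and 30.6, 27.8 and 32.1 CPM in HFD, a rise of 2.28-fold (log2 1.19, SE 0.28, FDR = 0.0315). Here too the groups were apart, but 52.6% of the 50-base runs of Acaca are shared with other genes, mostly Gm5182, so its count is uncertain. Neither gene kept its FDR under 0.05 without Control replicate 1 (0.103 for Fasn, 0.0995 for Acaca) or without Control replicate 2 (0.142 and 0.144), and 0 of the 33 genes did so without any one HFD mouse. Removing each sample's trend on exon length left Fasn at 1.44 (FDR = 0.0456) and took Acaca to 0.65 (FDR = 0.168).

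Several other fatty acid and SREBP genes had higher values in HFD without passing the test. Scd2 stood at 746, 637 and 916 CPM in Control and 1444, 1529 and 1534 CPM in HFD (log2 0.97, SE 0.30, FDR = 0.0856). Srebf1 stood at 70.2, 57.2 and 81.7 CPM in Control and 116, 120 and 123.4 CPM in HFD (log2 0.78, SE 0.37, FDR = 0.266). The HFD samples of both genes lay above every Control sample. Srebf2 stood at 68.6, 88.5 and 168 CPM in Control and 170, 204 and 200 CPM in HFD (log2 0.82, SE 0.43, FDR = 0.312), so that Control replicate 3 nearly reached the HFD mice. Scd1, Fads1 and Fads2 also had HFD samples above all Control samples, with log2 changes of 0.39, 0.66 and 0.68 and FDR from 0.226 to 0.33. Among the fatty acid enzymes the elongases Elovl5 at -0.25 and Elovl6 at -0.59 were negative, the latter with all HFD samples below Control. Of the SREBP regulators, Insig2 was at -0.43 (FDR = 0.271), also with all HFD samples below Control, and Insig1 at 0.07 with overlap.

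The sterol enzymes showed small negative differences in HFD. Of the 18, 14 had a negative log2 change and 0 passed either threshold. HFD samples lay below all Control samples for 8 (44.4%) and above them for 0, where 35.7% of all tested genes did not overlap in either direction. The median of the 18 was -0.22, where the median of all tested genes was 0.004. That of all tested genes differed by exon length, at -0.23 in the tenth with the shortest exons and 0.48 in the tenth with the longest. The lowest values belonged to Tm7sf2, a sterol reductase, at -0.67, Ebp, a sterol isomerase, at -0.61, Nsdhl, which helps to remove methyl groups from sterols, at -0.55, Dhcr7, the last reductase of the route, at -0.53, and Pmvk, phosphomevalonate kinase, at -0.52. Hmgcs1, Sqle, Lss, Cyp51 and Mvk lay between -0.03 and 0.04.

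**Figure D2:**
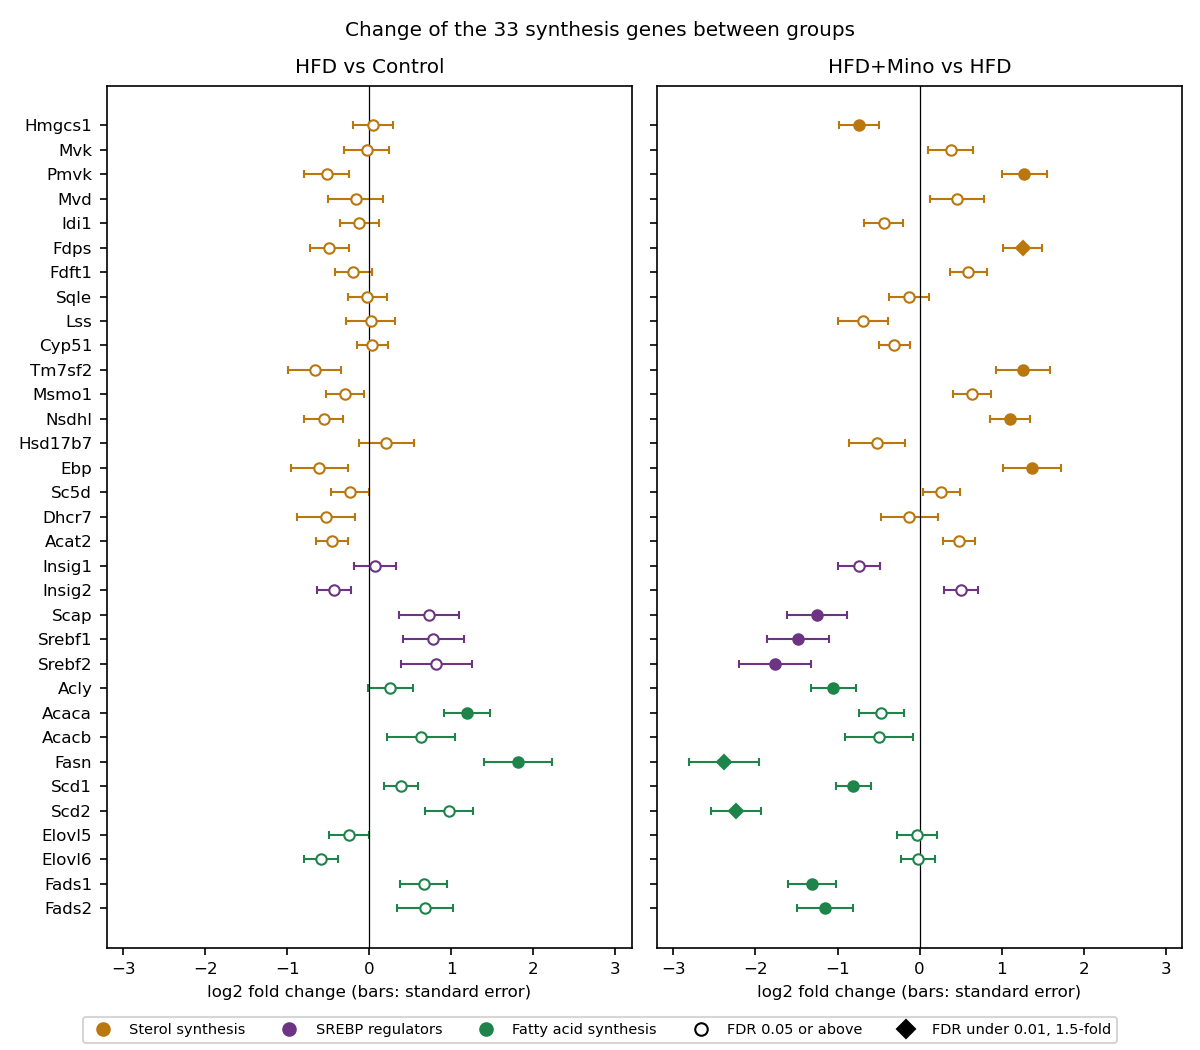
Each row is 1 of the 33 genes, coloured by group, and the horizontal axis is the log2 fold change with its standard error; filled symbols have an FDR under 0.05 and diamonds also pass an FDR under 0.01 with 1.5-fold. From the left panel (HFD against Control) to the right (HFD+Mino against HFD) most fatty acid and SREBP genes go from positive to negative and several sterol enzymes from negative to positive; both panels share the HFD mice.

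For HFD+Mino against HFD, which asks what the drug changed on the high fat diet, 3 of the 33 genes passed an FDR under 0.01 with 1.5-fold (9.09%), against 4.15% of all tested genes. Fdps was the 1 gene that rose (1.98% of all genes rose), and Fasn and Scd2 were the 2 that fell (2.16% of all genes fell). At an FDR under 0.05, 15 of the 33 genes passed (45.5%), against 27.5% of all tested genes. Of these, 5 rose (14.6% of all genes) and 10 fell (12.9% of all genes). The 5 that rose were all sterol enzymes, whereas the 10 that fell were 6 fatty acid enzymes, 3 SREBP regulators and 1 sterol enzyme. The samples of the groups did not overlap for 24 of the 33 genes (72.7%), against 46.7% of all tested genes. HFD+Mino against HFD and HFD against Control share the HFD mice, so a high or low level in those 3 mice enters both comparisons with opposite signs.

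Scd2 (chromosome 19, 44293676 to 44306864, plus strand) introduces unsaturation into stearic acid for membranes and myelin, and it had the smallest FDR of the 33. It stood at 1444, 1529 and 1534 CPM in HFD and 222, 251 and 483 CPM in HFD+Mino. Every treated mouse lay below every Control mouse as well. The fall was 4.72-fold (log2 -2.24, SE 0.31, edgeR FDR = 0.00257). Fasn stood at 203, 186 and 228 CPM in HFD and 31.3, 22.6 and 64.5 CPM in HFD+Mino, a fall of 5.21-fold (log2 -2.38, SE 0.43, FDR = 0.0072). Its treated mice overlapped the Control range. Both genes kept an FDR under 0.05 in all 21 alternatives run. At the stricter rule neither passed when any one HFD mouse or HFD+Mino replicate 1 was left out. Fasn also missed it without Control replicate 2 or HFD+Mino replicate 2 and with each sample's trend on exon length removed (log2 -1.79, FDR = 0.0134).

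In the same arm 4 more enzymes fell at an FDR under 0.05. Fads1 and Fads2, the desaturases that make long polyunsaturated fatty acids, lie on chromosome 19 near each other. Fads1 stood at 342, 413 and 385 CPM in HFD and 132, 101 and 226 CPM in HFD+Mino (log2 -1.31, SE 0.29, FDR = 0.013). Fads2 stood at 240, 256 and 227 CPM in HFD and 86.7, 59.1 and 178 CPM in HFD+Mino (log2 -1.16, SE 0.34, FDR = 0.0301). For each, the treated mice lay below the HFD mice, with replicate 3 the highest. Acly, which makes cytosolic acetyl-CoA from citrate, stood at 244, 260 and 314 CPM in HFD and 91.0, 117 and 187 CPM in HFD+Mino (log2 -1.05, SE 0.28, FDR = 0.0207). Scd1 stood at 150, 182 and 190 CPM in HFD and 119, 97.2 and 82.0 CPM in HFD+Mino (log2 -0.81, SE 0.21, FDR = 0.0203). Scd1 was the exception to the order of the treated mice, since replicate 3 was its lowest. The other 4 enzymes did not pass, with Acaca at -0.47, Acacb at -0.49, Elovl5 at -0.03 and Elovl6 at -0.02, so 6 of 10 fatty acid enzymes carried the change. The calls of Acly and Fads2 were lost when any one HFD mouse or HFD+Mino replicate 1 or 2 was left out, and that of Fads2 also without Control replicate 2. Fads1 lost its call without HFD replicate 2 or 3 or HFD+Mino replicate 1, and Scd1 without HFD replicate 2 or 3 and with the exon length trend removed.

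The SREBP genes fell with these enzymes. Srebf2 stood at 170, 204 and 200 CPM in HFD and 48.3, 26.6 and 94.4 CPM in HFD+Mino (log2 -1.76, SE 0.44, FDR = 0.0175), a fall of 3.39-fold. Srebf1 stood at 116, 120 and 123.4 CPM in HFD and 31.1, 22.7 and 75.01 CPM in HFD+Mino (log2 -1.48, SE 0.38, FDR = 0.0186), a fall of 2.78-fold. Scap, which escorts SREBP proteins to the Golgi apparatus, stood at 89.5, 101 and 111 CPM in HFD and 40.5, 25.7 and 60.6 CPM in HFD+Mino (log2 -1.25, SE 0.37, FDR = 0.0301). In all 3 genes the treated mice were below the HFD mice, and HFD+Mino replicate 3 was the treated mouse nearest to them. Each of the 3 lost its FDR under 0.05 when any one HFD mouse or HFD+Mino replicate 1 was left out, and Scap also without HFD+Mino replicate 2. Insig1 and Insig2 retain Scap in the endoplasmic reticulum, and Insig1 is itself a target of SREBP-2. Insig1 stood at 60.4, 69.9 and 84.5 CPM in HFD and 43.9, 29.3 and 55.9 CPM in HFD+Mino (log2 -0.73, SE 0.26, FDR = 0.0526), and Insig2 had a positive value (log2 0.51, SE 0.21, FDR = 0.0883), neither past the threshold.

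**Figure D3:**
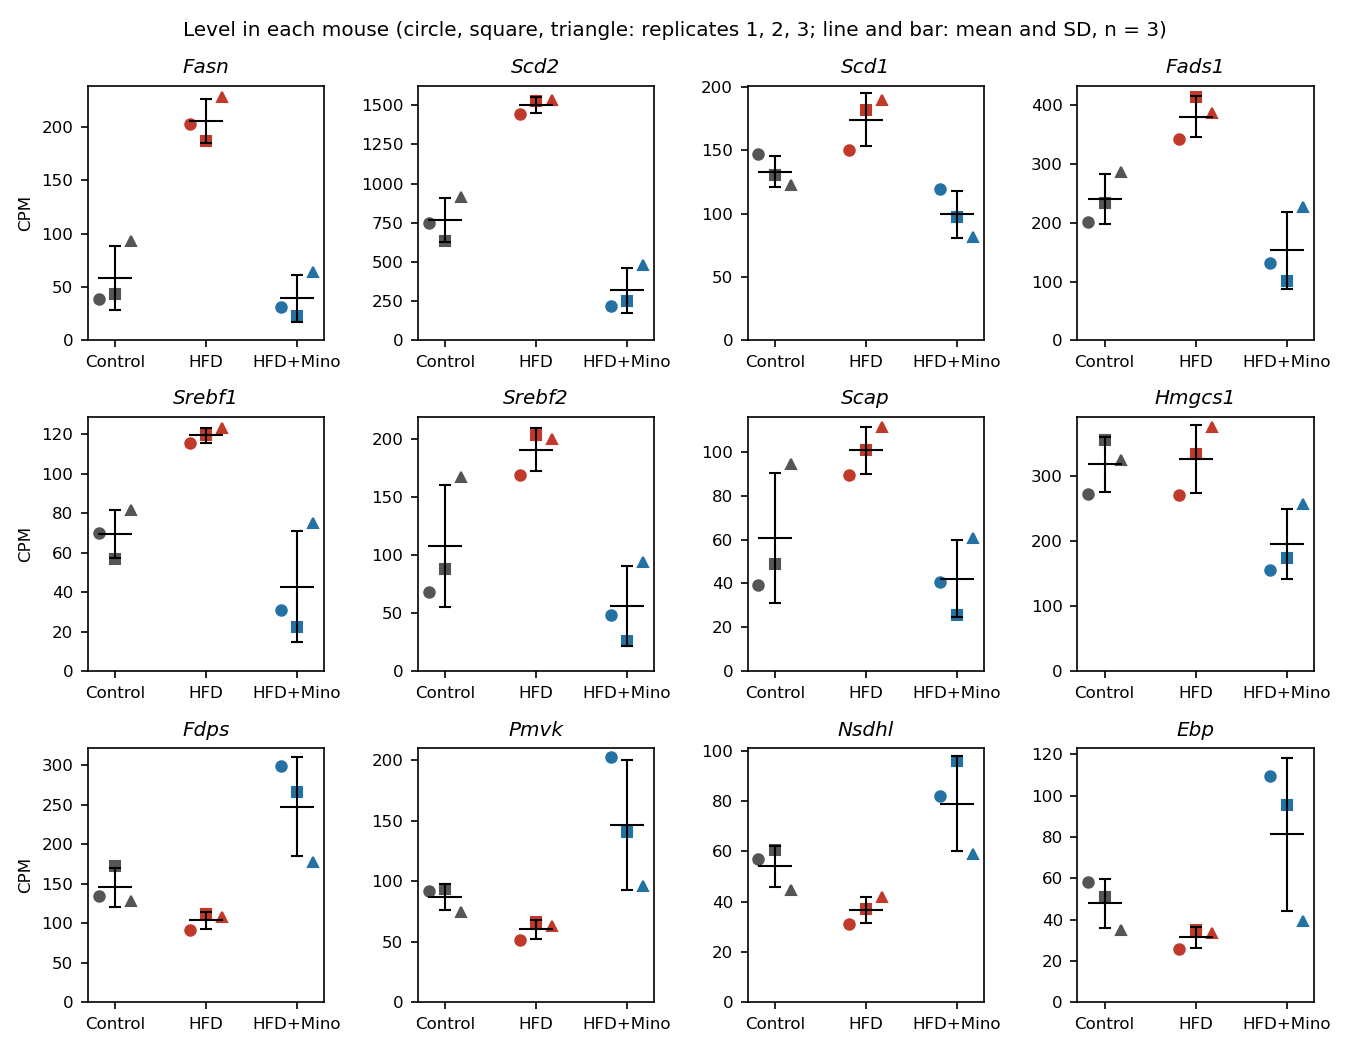
CPM on a linear axis from 0 for 12 of the genes in each mouse, with the mean and SD of each group (n = 3). For Fasn, Scd2, Scd1, Fads1, Srebf1 and Srebf2 every HFD mouse lies above every other mouse, for Scap and Hmgcs1 HFD overlaps Control, and for Fdps, Pmvk, Nsdhl and Ebp every HFD mouse lies below every other mouse.

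The sterol enzymes divided in HFD+Mino against HFD. Fdps (chromosome 3, 89093588 to 89101967, minus strand), farnesyl diphosphate synthase, at the branch towards sterols and isoprenoids, stood at 91.3, 112 and 108 CPM in HFD and 299, 266 and 177 CPM in HFD+Mino, a rise of 2.39-fold (log2 1.26, SE 0.24, FDR = 0.00884). At the stricter rule Fdps was lost when Control replicate 2, any one HFD mouse, or HFD+Mino replicate 1 or 2 was left out, and when only the 6 samples of HFD and HFD+Mino were fitted (FDR = 0.015). At an FDR under 0.05 it was lost in 1 of 21 alternatives, without HFD replicate 3 (FDR = 0.0501). Pmvk stood at 51.6, 66.6 and 62.8 CPM in HFD and 203, 141 and 95.9 CPM in HFD+Mino (log2 1.28, SE 0.27, FDR = 0.0117). For both, every treated mouse was above every HFD and every Control mouse. Nsdhl stood at 31.3, 37.2 and 41.7 CPM in HFD and 81.9, 96.0 and 58.8 CPM in HFD+Mino (log2 1.10, SE 0.24, FDR = 0.0123). Ebp stood at 25.8, 34.8 and 33.7 CPM in HFD and 109, 95.3 and 39.4 CPM in HFD+Mino (log2 1.37, SE 0.35, FDR = 0.0193). Tm7sf2 stood at 11.8, 15.2 and 15.7 CPM in HFD and 54.7, 23.6 and 24.3 CPM in HFD+Mino (log2 1.26, SE 0.33, FDR = 0.0199). The treated mice of these 3 genes lay above the HFD mice but overlapped Control, and in Tm7sf2 replicate 1 was far above the others. Nsdhl, Ebp and Tm7sf2 each lost the call when any one HFD mouse was left out, Ebp and Tm7sf2 also without HFD+Mino replicate 1 and Ebp without HFD+Mino replicate 2. Pmvk lost it without HFD replicate 1 or 3. Tm7sf2 shares 532 nt of exon with Vps51, Fdps 1124 nt with Gm43738 and Scd2 61 nt with Mir5114, each on the same strand. On the opposite strand Scap shares 985 nt with 5830462I19Rik, Hmgcs1 557 nt with Gm48342 and Srebf1 109 nt with Rai1. Strand use in the counts is not given, and the part of these neighbours in them was not tested.

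Hmgcs1, the enzyme that commits acetyl-CoA to the mevalonate route, went the other way. It stood at 273, 357 and 326 CPM in Control, 272, 335 and 376 CPM in HFD and 156, 175 and 257 CPM in HFD+Mino. Control and HFD overlapped, and the treated mice lay below both. Its fall from HFD was 1.67-fold (log2 -0.74, SE 0.24, FDR = 0.0442), and the call held in 10 of 21 alternatives. Sqle, squalene epoxidase, stood at 113, 165 and 160 CPM in Control, 132, 148 and 151 CPM in HFD and 120, 104 and 170 CPM in HFD+Mino, and all groups overlapped (log2 -0.13, SE 0.24, FDR = 0.721). Msmo1 at 0.64, Fdft1 at 0.59 and Acat2 at 0.48 had all treated samples above HFD with FDR between 0.0607 and 0.0855, while Lss at -0.69, Idi1 at -0.44 and Cyp51 at -0.31 had them below. Mvk, Mvd, Hsd17b7, Sc5d and Dhcr7 ranged from -0.52 to 0.45 and overlapped between the groups. Reads of Acat2 are shared with other genes over 45.9% of its 50-base runs, mostly Acat3, those of Fdft1 over 30.7%, mostly Ctsb, and those of Idi1 over 30.5%, mostly Gm13502, so these values are uncertain.

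The number of genes at an FDR under 0.05 depended on single mice. Without HFD replicate 1, 2 or 3, the number at an FDR under 0.05 was 5, 4 and 2 of 33, where 8.18%, 7.80% and 3.11% of all tested genes passed. Without HFD+Mino replicate 1 it was 6 of 33 (6.97% of all tested genes). Fasn and Scd2 were among the called genes each time. Leaving out HFD+Mino replicate 3 raised the number to 20 of 33, 8 higher and 12 lower (38.3% of all tested genes), and the log2 change was then -2.93 for Fasn, -2.67 for Scd2, -2.35 for Srebf2 and 1.45 for Fdps. Control replicate 1, which lacked Avp and Oxt, did not alter the number (15 of 33, with 28.4% of all tested genes). In another fit same-numbered mice of Control and HFD+Mino shared a block term and HFD had none, a pairing picked from these same counts. That fit set HFD against the fitted level of replicate 1 of the other group, not against the group mean. By this contrast 16 of 33 passed the stricter rule against HFD+Mino (26.0% of all tested genes), 6 higher and 10 lower in HFD+Mino. Against Control 2 of 33 passed (7.59% of all tested genes), Fasn and Scd2. Both counts therefore differ in kind from the comparisons of group means above. After removal of Rn45s and the mitochondrial genes, the number at an FDR under 0.05 was again 15 of 33.

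**Figure D4:**
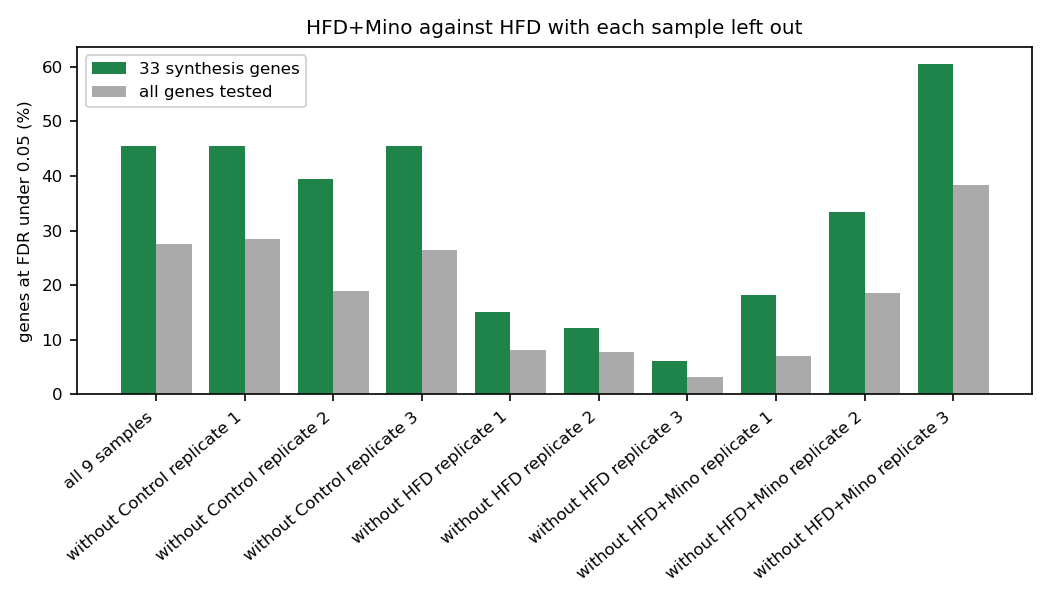
Bars give the percentage at an FDR under 0.05 in HFD+Mino against HFD, among the 33 genes (green) and among all tested genes (grey), with all 9 samples and with each sample left out. The green bar is above the grey one in every setting, from 60.6% against 38.3% without HFD+Mino replicate 3 down to 6.06% against 3.11% without HFD replicate 3.

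Exon length moved with the change in all genes and in this group. In HFD+Mino against HFD, the tenth of tested genes with the shortest exons (median 1074.5 nt) had a median log2 change of 1.12 and the tenth with the longest (median 12136 nt) one of -0.60. The 5 synthesis genes that rose had a median exon length of 2853 nt, the 10 that fell 5371.5 nt and the other 18 4640.5 nt. Members left the general course in both directions, since Fdps (4208 nt) and Tm7sf2 (4403 nt) rose and Fads2 (3295 nt) fell. With each sample's trend on exon length removed, 13 of 33 passed an FDR under 0.05 (17.1% of all tested genes), 5 higher and 8 lower. Fdft1, Msmo1 and Insig1 then entered, and Hmgcs1, Pmvk, Ebp, Scap and Scd1 dropped out. The median of the arms went from 0.42 to 0.23 for the sterol enzymes, from -1.25 to -0.87 for the SREBP regulators and from -0.93 to -0.61 for the fatty acid enzymes, each with its sign kept.

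**Figure D5:**
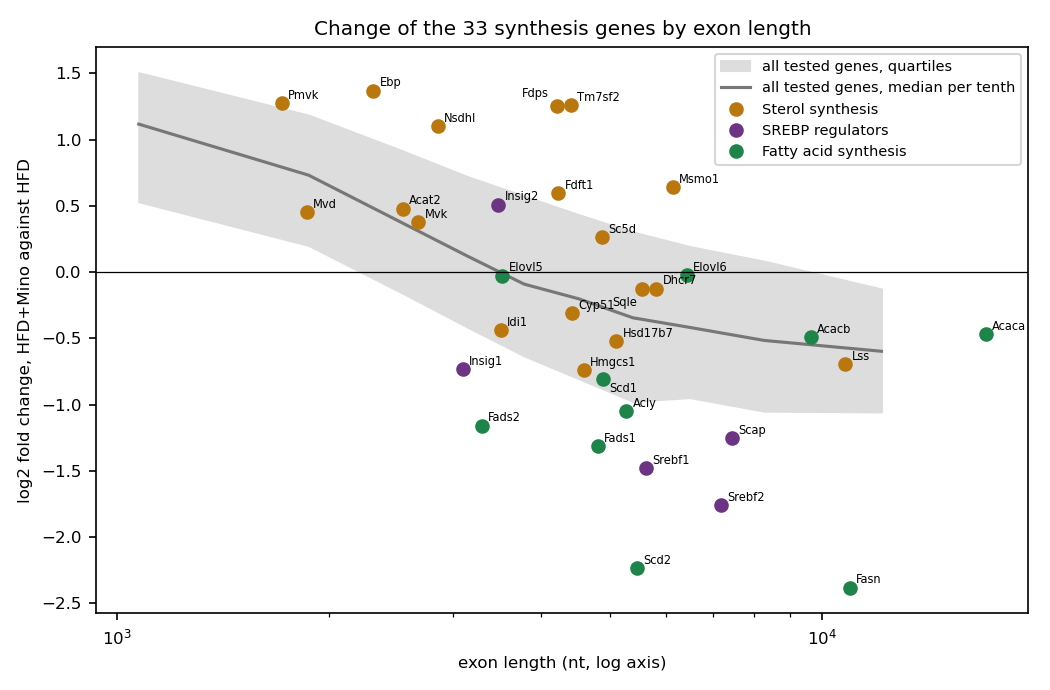
Log2 fold change of HFD+Mino against HFD over exon length (log axis) for the 33 genes, with the median and quartiles of all tested genes in 10 bins of exon length. Longer genes are lower in general, and genes such as Scd2, Fasn, Srebf2, Srebf1, Fads1 and Fads2 lie under the grey band and Fdps, Tm7sf2, Ebp, Nsdhl and Msmo1 above it.

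In HFD+Mino against Control, 0 of 33 genes passed the stricter rule and 0 of 33 an FDR under 0.05 in edgeR's quasi-likelihood test, as did 0% of all tested genes at either threshold. An unadjusted p under 0.05 was found for 12 of the 33 and 21.3% of all tested genes. DESeq2 called 1 of the 33, Scd2, at the stricter rule (1.59% of all tested genes), and edgeR's likelihood ratio test 0 (0.611%). Scd2 had the lowest value at -1.27 (SE 0.30, FDR = 0.132), below Control in every treated mouse, and Fdps (0.77, FDR = 0.139) and Pmvk (0.76, FDR = 0.161) were above Control in every treated mouse. Without HFD+Mino replicate 3, 3 of 33 passed the stricter rule (6.28% of all genes), all lower (Srebf1, Acly and Scd2), and 16 of 33 an FDR under 0.05 (20.8% of all genes), 5 higher and 11 lower. When the block for same-numbered mice of these groups was fitted, Scd2 alone of the 33 passed the stricter rule (3.18% of all tested genes), and 11 of 33 an FDR under 0.05 (16.3% of all tested genes), 2 higher and 9 lower. That pairing was picked from correlations in these same counts, so the calls of this fit are not separate support. A miss of the threshold with all 9 samples does not show that the treated mice had returned to Control levels.

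The 3-way test asks whether any group differs, and calls a gene when HFD is the extreme group and lies 1.5-fold from the mean of the 3 groups. It called 2 of the 33 genes, against 2.13% of all tested genes. Both were higher in HFD, Fasn by 1.40 on the log2 scale (FDR = 0.00974) and Scd2 by 1.07 (FDR = 0.00505). With the exon length trend removed Scd2 stayed at 0.92 (FDR = 0.00287) and Fasn missed at 1.08 (FDR = 0.0189). Leaving out HFD+Mino replicate 3 gave 10 of 33 (13.4% of all tested genes), and leaving out any HFD mouse, HFD+Mino replicate 1 or 2, or Control replicate 2 gave 0.

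Genes next to these routes were read from 4 lists written from general knowledge. Their counts at an FDR under 0.05 stand beside 14.6% of all tested genes higher and 12.9% lower in HFD+Mino against HFD, and 5.77% called in HFD against Control. Of 10 genes of the isoprenoid branch, 2 rose and 3 fell in HFD+Mino against HFD at an FDR under 0.05, and 1 rose and 1 fell in HFD against Control. Coq2, which makes ubiquinone, had log2 changes of -1.46 in HFD against Control (FDR = 0.00918) and 1.42 in HFD+Mino against HFD (FDR = 0.00797), and Icmt, which methylates prenylated proteins, fell by 2.09 in HFD+Mino (FDR = 0.00849). Of 10 genes of SREBP processing and of enzyme turnover, 2 rose and 1 fell in HFD+Mino, and 2 fell in HFD against Control. Rnf139, a sterol-regulated ubiquitin ligase, had log2 changes of -1.34 in HFD against Control (FDR = 0.00449) and 1.13 in HFD+Mino against HFD (FDR = 0.00794). Of the proteases that release SREBP proteins, Mbtps1 was at -0.89 (FDR = 0.0492) in HFD+Mino against HFD, while Mbtps2 did not pass (FDR = 0.994). Of 19 genes of sterol transport and turnover, 2 rose and 5 fell in HFD+Mino, and 1 rose and 2 fell in HFD against Control. The cholesterol exporter Abcg1 rose in HFD (1.20, FDR = 0.00669) and fell in HFD+Mino (-1.58, FDR = 0.00198), Lrp1, a lipoprotein receptor, fell in HFD+Mino (-1.74, FDR = 0.00951), and Osbp, a sterol carrier, was lower in HFD than in Control (-1.44, FDR = 0.008). Of 22 further genes of fatty acid supply and elongation, 0 passed the stricter rule in either comparison. In edgeR's test 1 had an unadjusted p under 0.05 in HFD against Control, where 20.5% of all tested genes did. In HFD+Mino against HFD 10 of the 22 did, near the 41.3% of all tested genes. At an FDR under 0.05, 3 were higher (Tecr, Mlx and Hacd1) and 2 lower (Acss1 and Elovl2) in HFD+Mino. The shares called in HFD+Mino against HFD were 50%, 30%, 36.8% and 22.7% of the 4 lists in the order given, against 27.5% of all tested genes. Median log2 changes of the 4 lists in the same comparison were 0.01, -0.05, -0.30 and -0.01 in this order, beside 0.009 for all tested genes.

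Markers of the cell types of the tissue were set beside the results, with the same shares of all tested genes as background. Of the 10 mature oligodendrocyte markers 0 passed an FDR under 0.05 in either comparison with HFD in edgeR's test. By unadjusted p under 0.05, 4 of the 10 passed in HFD against Control (20.5% of all tested genes) and 0 in HFD+Mino against HFD (41.3% of all tested genes). Control replicate 1, with the highest marker sum by far, had Scd2 at 746 CPM, between the other Control mice, and the sums of HFD (2764 to 7116 CPM) and HFD+Mino (2409 to 6139 CPM) overlapped. The 6 oligodendrocyte precursor markers summed to 212 to 374 CPM in Control, 287 to 363 CPM in HFD and 117 to 209 CPM in HFD+Mino, so that their sum, like that of the fatty acid enzymes, was lower in HFD+Mino than in HFD. The members differed: Gpr17 (-2.25) and Cspg4 (-1.71) fell at the stricter rule and Pdgfra (-1.08, FDR = 0.0196) at an FDR under 0.05, Olig2 rose (2.20, FDR = 0.0121), and Olig1 (-1.03) and Bmp4 (1.11) did not pass. In HFD against Control Cspg4 was higher (1.62) and Olig2 lower (-3.30). The 8 astrocyte markers summed to 4503 to 6572, 4818 to 5661 and 4217 to 4956 CPM in the 3 groups. In HFD+Mino against HFD 3 of 8 fell at an FDR under 0.05, and 2 of 8 had positive log2 changes. The 8 markers of neurons summed to 5445 to 7930, 4268 to 6350 and 4552 to 5142 CPM, and 3 of 8 fell likewise, while 3 of 8 had positive log2 changes. Sums of the 8 microglia markers were 285 to 459, 362 to 388 and 419 to 497 CPM. At an FDR under 0.05, 3 of 8 (Aif1, C1qa and C1qb) were higher in HFD+Mino than in HFD and 0 lower. By sign the markers divided, 4 positive and 4 negative, with Csf1r at -0.97 (FDR = 0.0564) and Cx3cr1 at -0.56 (FDR = 0.0791) below HFD in every treated mouse. Vascular markers summed to 215 to 406, 146 to 201 and 204 to 572 CPM, and of 8, 3 rose at an FDR under 0.05 in HFD+Mino against HFD (Ly6c1 at 2.36, Vtn at 1.76 and Rgs5 at 1.56) and 2 fell, Flt1 (FDR = 0.0152) and, at the stricter rule, Pdgfrb (-1.57). Ependymal and choroid markers lay at 14.03 to 99.7, 112 to 218 and 229 to 437 CPM, the PVN neuron markers at 141 to 2734, 2956 to 3901 and 3814 to 38091 CPM, and those of neighbouring nuclei at 36.7 to 3404, 18.3 to 38.5 and 37.8 to 166 CPM. The part of these cell types in the results was not tested.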

How the data were processed

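Amplified cDNA from PVN punches of 9 mice was sequenced. The authors aligned reads to mm10 (GRCm38) with HISAT2 and counted them per gene with featureCounts, and they deposited 1 table of raw read counts. Strand use and the handling of reads with several positions are not given in the sources used here. Groups came from the sample labels, and 0 columns were left unused.

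The test was edgeR's quasi-likelihood F test (edgeR 4.0.16, R 4.3.3) in 1 model of the group means over all 9 samples, after filterByExpr and TMM scaling, with Benjamini-Hochberg adjustment over 17344 genes. SE is the absolute log2 fold change over the square root of F, and SD is over the 3 mice of a group. Replicates differed beyond counting noise, with a chi-square of 21.0 to 316 per degree of freedom for each pair. The code was tested on simulated counts for HFD against Control with 200 of 17344 genes changed, where 30 were called and all 30 were changed ones.

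Promoters and positions were from RefSeq GRCm38.p6 (the promoter listed first, where a gene had several). Merged exon lengths and shared 50-base runs were from GENCODE M21 (Python 3.11.15, pandas 2.3.3).

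The genes, lists and tests were chosen with earlier results of these data known. All 33 genes are named. Values of each sample are given for those called between HFD and another group and for Hmgcs1, Sqle, Insig1, the SREBP genes, Fasn, Scd1 and Scd2, and each other list gives at most 3 called genes, by smallest FDR. Further genes named at an FDR under 0.05, or beside them, lie outside that rule and were picked once the values were known.

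Alternatives were DESeq2 1.42.0, the likelihood ratio test, RLE scaling, other filters (none, or a mean count of 50), removal of Rn45s with mitochondrial genes, replicate blocks, removal of each sample's lowess trend on exon length or GC content, thinning to 17728590 counts, the 6 samples of a pair and each sample left out. Alternatives for the counts and genes at an FDR under 0.05 and for the medians by arm were added after seeing the data. The pairing was checked by correlating deviations from group means: same-numbered samples of Control and HFD+Mino gave 0.135, 0.163 and 0.292, and HFD gave -0.152 to -0.00624 with either group. Replicate numbers are those of the sample titles, also in the block over all 9 samples. Column labels of the HFD mice carry other numbers. By those labels HFD replicate 1 matches replicate 3 of the other groups, with 0.0385 for Control and 0.0171 for HFD+Mino. The HFD values above thus do not show whether HFD was paired. The pairing comes from these counts alone, since no source names a shared litter, batch or day. With the block in Control and HFD+Mino alone, HFD was set against the fitted replicate 1 level of the other group. Results of that fit that involve HFD are thus not for group means.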

Additional observations from a re-analysis of the deposited data

How the results depend on the processing

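No called gene and no median of the sterol, SREBP or fatty acid genes changed direction under any alternative run, whereas the median of all 33 genes between HFD and Control, near 0, ranged from -0.09 to 0.09. The number of the 33 genes called between HFD and Control, 0, was 2 with DESeq2, with the likelihood ratio test, with the replicate block in Control and HFD+Mino alone and at an FDR under 0.05, and 1 with no filter, the block over all 9 samples, the GC trend removed and 6 samples of the pair, with 0 to 2 when a sample was left out (2 without HFD+Mino replicate 3). Between HFD+Mino and HFD, 3 became 14 with DESeq2 and with the likelihood ratio test, 9 with no filter, 5 at a mean count of at least 50, 8 with the block over all 9 samples and with the GC trend removed, 16 with the block in Control and HFD+Mino alone and 15 at an FDR under 0.05, and 0 to 14 with a sample left out. Between HFD+Mino and Control, 0 became 1 with DESeq2 and with the block in Control and HFD+Mino alone, and 0 to 3 with a sample left out. In the 3-way test 2 became 9 with DESeq2, 7 with the likelihood ratio test, 12 with that block, 1 with the length trend removed, 13 at an FDR under 0.05, and 0 to 10 with a sample left out. The counts with the block in Control and HFD+Mino alone that involve HFD are 2, 16 and 12. They set HFD against the fitted replicate 1 level and are not comparisons of group means. The pairing behind that block was picked from these same counts. The 15 genes at an FDR under 0.05 between HFD+Mino and HFD, a count chosen after seeing the data for its alternatives, ranged from 2 to 20 with a sample left out. The median log2 change of the 33 genes between HFD+Mino and HFD, -0.31, was -0.0085 with the length trend removed and -0.35 to -0.18 with a sample left out; between HFD+Mino and Control, -0.27, it was -0.15 and -0.34 to -0.11. Over the values of single genes, 358 kept their side of the threshold and 102 did not. The cause of these moves was not tested. In simulated counts for HFD against Control at this depth, 9% of genes changed 2-fold and 56% of genes changed 4-fold passed an FDR under 0.05. Only 200 of 17344 genes were changed there, a setting with a stricter FDR adjustment than in the data.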
